A study of Drosophila melanogaster with 9 samples.

Results

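Female fruit flies kept on a restricted diet were compared with females kept on a normal diet to which resveratrol, a plant polyphenol, had been added. The comparison rests on 6 of the 9 arrays of the study, chosen by their diet labels: 3 arrays of restricted-diet flies and 3 arrays of resveratrol-fed flies. Another 3 arrays, of flies on the normal diet alone, entered the estimate of the spread and are given below for orientation. All flies were 10 days old females of the wild-type strain Canton-S, and RNA from the head and thorax was hybridised to Affymetrix Drosophila Genome 2.0 arrays. Each array carried RNA pooled from at least 75 flies, and the design text calls the 3 arrays of a diet biological replicates. What the diets contained and how much resveratrol was fed is not given in the sources used here.

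Restricting the diet lengthens life in many animals, flies included, and the nutrient sensors it acts on include insulin and TOR signalling, which promote growth and storage when food is plentiful. Resveratrol is known as a compound reported to activate sirtuins, a family of NAD-dependent deacetylases, and it has been discussed as a mimic of restriction. Setting both treatments directly against each other asks which transcripts separate them, a question that a comparison of each with the normal diet does not answer by itself. In the fly, the head holds the brain, the compound eyes and fat body, and the thorax holds flight muscle, the thoracic ganglion and the front of the gut.

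The values are log2 probe set summaries. Probe sets at log2 4 or above on 3 or more of the 9 arrays were tested, and 8822 genes (or unnamed transcripts, 1 probe set each) entered the fit. Between 9295 and 9405 probe sets reached log2 4 on each array. Pearson's correlation over all tested genes ran between 0.985 and 0.989 among the restricted arrays, between 0.975 and 0.991 among the resveratrol arrays, and between 0.962 and 0.988 for pairs that cross the treatments. Precision is limited by the number of arrays, and a difference below is a difference of log2 levels, restricted diet minus resveratrol, so a positive value means a higher level on the restricted diet. RNA quality, read as the mean difference between 3′ and 5′ control probe sets, was 1.40 to 1.69 log2 units on the restricted arrays, 1.60 to 1.64 on the resveratrol arrays and 1.48 to 1.69 on the normal-diet arrays. Its part in the results was not tested.

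One resveratrol array stood apart in genes of the ovary, a tissue outside the labelled one. The mean level of 15 germline markers was 8.08, 7.25 and 7.77 on the restricted arrays, against 7.89, 7.41 and 5.80 on the resveratrol arrays, with replicate 3 the low one. On the normal-diet arrays it was 6.01, 6.26 and 6.77. Eggshell genes, made by the follicle cells around the egg, varied even more within a diet: their mean over 11 members was 10.36, 5.95 and 7.94 on the restricted arrays, against 10.07, 9.13 and 6.75 on the resveratrol arrays. None of the 15 germline or 11 eggshell genes passed the test. The median difference of the germline list, 0.73, was 0.06 without resveratrol replicate 3, and that of 18 DNA replication genes, 0.62, was 0.18. Without that array the medians of the lists described below were 0.64 for digestive proteases, -0.36 for neuron markers and -0.27 for eye markers. Of 6 male reproductive genes, 5 were at or near the lowest value on all arrays, and so were the spermathecal genes Send1 and Send2. In bulk tissue of this kind, fewer cells of a type and less RNA per cell cannot be told apart, which holds for every gene group below.

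At a limma adjusted p under 0.05, 224 genes differed between the restricted diet and resveratrol, which is 2.54% of those tested. Of these, 40 (0.453%) were higher on the restricted diet and 184 (2.09%) were lower. These shares are the background for each count of passing list members below. The higher ones differed by a median of 0.65 and the lower ones by a median of -0.48, against a median of -0.04 over all genes tested. Differences of at least 2-fold were found for 13 of the higher and 10 of the lower genes. All 224 had 3 restricted-diet values on 1 side of the 3 resveratrol values. Over all genes tested, 9.83% had all restricted values above and 21.2% had all restricted values below those with resveratrol. The calls lie close to the threshold: the smallest adjusted p was 0.0255, and 560 higher and 1659 lower genes had an unadjusted p under 0.05.

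These counts depend on the normal-diet arrays and on single arrays. With only the 6 arrays compared, 1 gene passed as higher and 0 as lower, although 625 and 1471 had an unadjusted p under 0.05. Without restricted replicate 3 or without resveratrol replicate 2 no gene passed, without resveratrol replicate 3 only 1 lower gene did, and without normal-diet replicate 2 the count was 107 higher and 183 lower. Quantile normalization left 20 higher and 18 lower genes, and centring each array on its median left 11 and 4, so that the excess of lower calls is not kept under another scaling. All 224 genes kept their sign under both.

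**Figure D1:**
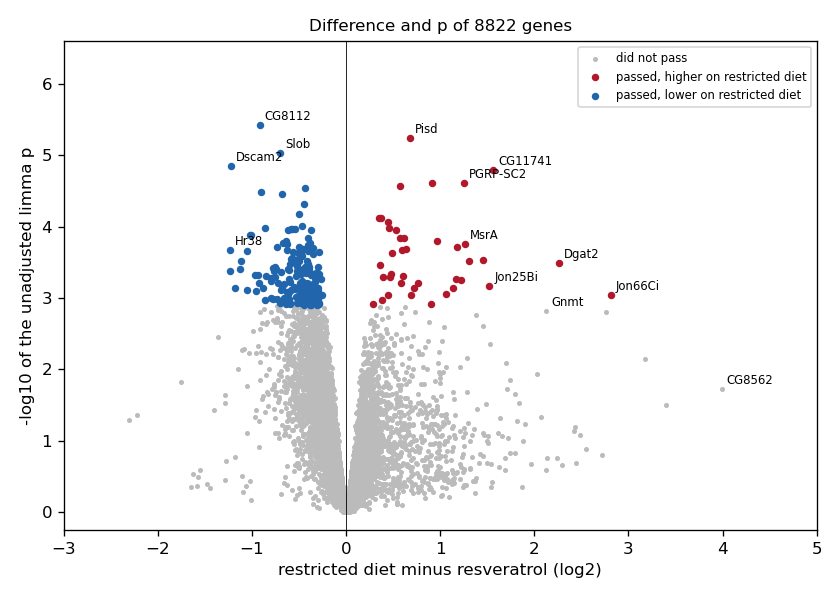
Difference in log2 level (restricted diet minus resveratrol, horizontal) against the negative log10 of the unadjusted limma p (vertical) for 8822 genes. The 40 genes that passed as higher on the restricted diet reach larger differences than the 184 that passed as lower, and CG8562, with the largest difference of all, did not pass.

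Genes of digestion and Dgat2, a gene of lipid synthesis, were among the largest passing differences upward. CG11741 (1.56) and CG13659 (1.45), also among them, are described further below. Jon66Ci, a serine protease of the Jonah family secreted into the gut, stood at 7.17, 4.95 and 5.43 on the restricted arrays, against 3.68, 2.86 and 2.56 on the resveratrol arrays. The restricted values were all the higher ones, and every resveratrol value lay under log2 4, where background subtraction widens differences. Its level was therefore at least 3.60-fold higher on the restricted diet, measured against log2 4 (limma adjusted p = 0.0467). Leaving out 1 array moved the fitted difference of 2.81 to between 2.16 and 3.26. Within the comparison only the restricted arrays reached log2 4, so the adjusted p is not read as support for a difference.

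Dgat2 encodes a diacylglycerol acyltransferase, the enzyme family that makes triacylglycerol in its last step. Its values were 7.35, 7.80 and 7.91 on the restricted diet, against 4.89, 5.47 and 5.91 with resveratrol. The groups were far apart, and the normal-diet values of 5.29, 4.28 and 5.54 lay among those with resveratrol or, in 1 case, below them. The difference was 2.26 ± 0.37 (SE), 4.80-fold, with a limma adjusted p of 0.0413. Dgat2 was the single gene to pass among 21 genes of fatty acid and triacylglycerol synthesis, whose median difference was -0.05.

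Jon25Bi, another Jonah protease, had 10.98, 11.21 and 11.36 on the restricted arrays, against 10.21, 9.56 and 9.21 on the resveratrol arrays, a difference of 1.52 ± 0.28 (SE, adjusted p = 0.045). No value of one group reached into the other. GATAe, an endodermal transcription factor that keeps gut cells in their identity, had 8.14, 8.25 and 7.98 on the restricted diet, against 6.96, 7.17 and 6.69 with resveratrol (difference 1.18 ± 0.18, SE, adjusted p = 0.039). The normal-diet values of GATAe, 8.14, 7.54 and 7.66, lay near those of the restricted diet, whereas those of Jon25Bi, at 9.69, 10.18 and 10.47, lay near those with resveratrol.

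The list of digestive proteases was chosen with earlier results of these data known. All 24 tested members had a positive difference, with a median of 0.66. Only Jon66Ci and Jon25Bi passed, and 15 of the 24 had restricted values entirely above those with resveratrol, against 0.453% passing as higher and 9.83% entirely above over all genes tested. The mean of the list was 11.83, 11.32 and 10.88 on the restricted arrays, against 10.86, 10.30 and 9.84 on the resveratrol arrays. The lowest restricted array was thus barely above the highest resveratrol array. Jon25Bii had 11.03, 10.95 and 11.12 on the restricted diet, against 10.11, 9.64 and 9.21 with resveratrol, and its difference of 1.38 did not pass (adjusted p = 0.0567). Jon65Aiii, at the bright end of the array, differed by 0.22 (adjusted p = 0.0882).

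The other genes of food breakdown had positive medians with no member past the threshold. The median difference was 0.57 over 14 genes of sugar digestion, 0.34 over 9 carboxypeptidases and 0.40 over 20 predicted serine proteases. The last median was 0.23 without restricted replicate 1 and 0.24 without resveratrol replicate 3. Of those 20 proteases 6 had negative differences, down to -1.28, and 3 had restricted values entirely below those with resveratrol. Mal-A1, a maltase that splits disaccharides, had 12.90, 13.03 and 12.74 on the restricted diet, against 12.34, 12.03 and 11.82 with resveratrol (adjusted p = 0.12). The restricted values were all above those with resveratrol. CG8562, a predicted carboxypeptidase, showed the largest difference of all genes tested, 3.99 ± 1.35 (SE), and did not pass (adjusted p = 0.128). Its restricted values of 10.21, 10.38 and 8.29 stood against 7.39, 5.92 and 3.58 with resveratrol, and its normal-diet values of 4.83, 2.44 and 7.17 spread over the resveratrol range and below it. Its neighbour in the list, CG8560, differed by 3.40 (adjusted p = 0.162).

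Markers of the midgut, the main site of digestion, were measured beside these genes. The mean of 8 midgut markers was 9.14, 9.17 and 8.94 on the restricted arrays, against 8.59, 8.61 and 8.40 on the resveratrol arrays, and it was 8.59, 8.48 and 8.76 on the normal-diet arrays. All restricted arrays lay above all others. The same held for 6 markers of the Malpighian tubule, the fly kidney, none of which passed. Their mean was 8.58, 8.53 and 8.64 on the restricted arrays, against 8.09, 8.46 and 8.14 on the resveratrol arrays. Of the 8 midgut markers, GATAe and Jon25Bi, which is also in the list of digestive proteases, passed as higher, against 0.453% of all genes tested. The septate junction genes did not: Ssk and mesh differed by 0.71 (adjusted p = 0.0683) and 0.55 (adjusted p = 0.121), and their partner Tsp2A by 0.54 (adjusted p = 0.158). Mip, a gut and brain peptide, and Cad87A, a cadherin, had negative differences. Tsp2A, Mip and Cad87A are named after their values were seen. The part of the amount of gut tissue in the results on digestive genes was not tested.

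**Figure D2:**
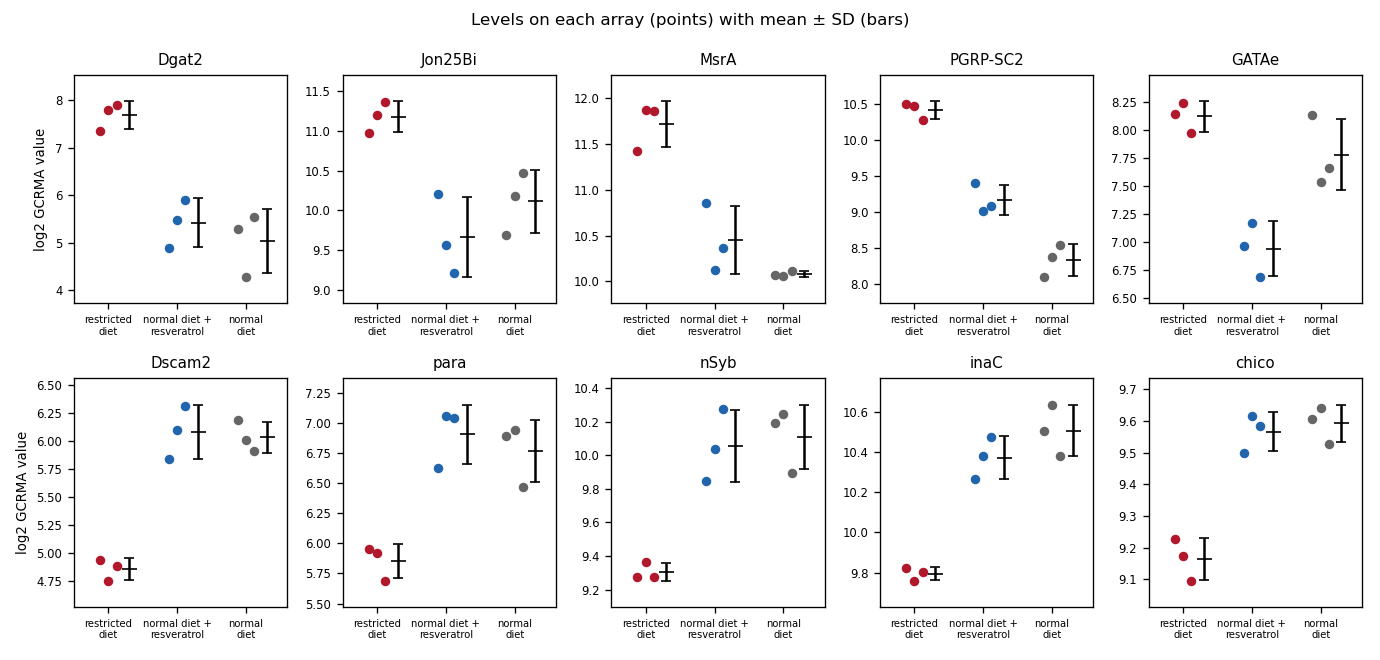
Log2 level of 10 genes that passed, on each array (points), with mean ± SD of the 3 arrays of a diet (bars). In the upper row the restricted-diet points lie above the resveratrol points, as for Dgat2 with a difference of 2.26, and in the lower row below them, as for para with -1.05.

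Genes of protection against damage and infection were also among the higher ones. MsrA, the reductase that repairs oxidised methionine, had 11.42, 11.87 and 11.85 on the restricted diet, against 10.85, 10.13 and 10.37 with resveratrol. The difference was 1.26 ± 0.19 (SE, limma adjusted p = 0.039), and the normal-diet values, 10.07, 10.05 and 10.12, lay just under those with resveratrol. It was 1 of 17 antioxidant genes tested, and the other 16 did not pass, with a list median of 0.11.

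PGRP-SC2 encodes a secreted peptidoglycan recognition protein of the gut, an amidase that degrades bacterial cell wall and dampens immune signalling. It had 10.50, 10.48 and 10.28 on the restricted arrays, against 9.40, 9.02 and 9.08 on the resveratrol arrays and 8.10, 8.38 and 8.54 on the normal-diet arrays. The 3 diets formed 3 separate steps. The difference between the treatments was 1.25 ± 0.14 (SE, adjusted p = 0.0276), while that between resveratrol and the normal diet, 0.83, did not pass (adjusted p = 0.0794). No other of the 7 peptidoglycan recognition genes passed, and none of 8 antimicrobial peptide genes did. Of the 7, 2 had restricted values entirely above those with resveratrol and 2 entirely below, against 9.83% and 21.2% of all genes tested. Their median difference was 0.20, and 0.006 without resveratrol replicate 2.

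Glutathione transferases, which attach glutathione to toxic compounds, gave 2 higher genes out of 29, against 0.453% of all genes tested, and a median of 0.13. GstE5 had 9.36, 9.46 and 9.39 on the restricted arrays, against 8.78, 8.78 and 8.94 on the resveratrol arrays, a difference of 0.57 ± 0.07 (SE, adjusted p = 0.0276). GstE3 had 11.83, 11.78 and 11.64 on the restricted diet, against 11.18, 10.91 and 11.01 with resveratrol, a difference of 0.72 (adjusted p = 0.045). Neither gene overlapped between the treatments. Of 65 cytochrome P450 genes, Cyp12d1-d was higher, with a difference of 0.69 (adjusted p = 0.0467), and Cyp18a1 was lower. Over all genes tested, 0.453% passed as higher and 2.09% as lower. None of 22 UDP-glycosyltransferase genes passed, and the median of that list was 0.10, with 0.024 without restricted replicate 1 and 0.16 without resveratrol replicate 3. The 26 proteasome subunits tested had small differences with 25 of 26 above 0 and a median of 0.17, none of which passed.

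Of the other genes among the 15 largest passing differences upward, CG11529, a predicted serine protease outside the lists, had 5.998, 6.23 and 6.01 on the restricted arrays, against 5.11, 5.32 and 5.05 on the resveratrol arrays (difference 0.92, limma adjusted p = 0.0276). CG16727 had 7.002, 7.19 and 7.11 on the restricted diet, against 5.90, 5.91 and 5.82 with resveratrol (difference 1.22, adjusted p = 0.0431). CG15358 had 6.36, 6.39 and 6.10 on the restricted diet, against 5.17, 5.12 and 5.06 with resveratrol (difference 1.17, adjusted p = 0.0421). The resveratrol values of CG16727 and CG15358 lay close together, and neither gene overlapped between the treatments. CG3348 was far brighter, with 12.64, 12.08 and 12.04 on the restricted diet, against 11.19, 11.36 and 10.79 with resveratrol (difference 1.14, adjusted p = 0.045).

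Among the remaining higher genes, Fancl, the ubiquitin ligase of the Fanconi anaemia DNA repair pathway, had 6.37, 5.90 and 6.01 on the restricted diet, against 4.84, 4.94 and 4.58 with resveratrol (difference 1.30, adjusted p = 0.0413). Its normal-diet values, 4.27, 3.67 and 4.42, lay below every resveratrol value. Taldo, the transaldolase of the pentose phosphate pathway, is named after its values were seen. It had 13.25, 13.11 and 13.27 on the restricted diet, against 12.86, 12.81 and 12.80 with resveratrol (difference 0.39, adjusted p = 0.0415). Gnmt, the glycine N-methyltransferase that consumes S-adenosylmethionine, missed the threshold (adjusted p = 0.0533) with a difference of 2.12. Its values were 11.56, 12.27 and 11.995 on the restricted diet, against 10.68, 9.22 and 9.55 with resveratrol, and 7.37, 8.49 and 8.55 on the normal diet. None of the 16 genes of the one-carbon list passed, which also holds Gclc, a gene of glutathione synthesis.

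The genes lower on the restricted diet were more numerous, and many are known from neurons. Of 16 neuron markers tested, 8 passed as lower, 0 as higher, and the median difference was -0.40, against 2.09% of all genes passing as lower and a median of -0.04. The mean of the list was 8.82, 8.91 and 8.77 on the restricted arrays, against 9.20, 9.27 and 9.36 on the resveratrol arrays, and it was 9.34, 9.44 and 9.18 on the normal-diet arrays. The resveratrol and normal-diet arrays overlapped, and the restricted arrays lay below both. In 14 of the 16 genes the restricted values lay entirely below those with resveratrol, as in 21.2% of all genes tested.

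The gene para, which encodes the voltage-gated sodium channel of action potentials, had 5.95, 5.92 and 5.69 on the restricted arrays, against 6.63, 7.06 and 7.04 on the resveratrol arrays. Its difference of -1.05 ± 0.16 (SE, limma adjusted p = 0.039) was the largest of the neuron markers. The vesicle protein gene nSyb, a synaptobrevin needed for transmitter release, had 9.27, 9.36 and 9.28 on the restricted diet, against 9.85, 10.04 and 10.28 with resveratrol (difference -0.75, adjusted p = 0.0413). The RNA-binding protein gene elav, present in nearly all fly neurons, had 10.50, 10.36 and 10.41 on the restricted diet, against 10.80, 10.85 and 10.87 with resveratrol (difference -0.42, adjusted p = 0.0413). In each of the 3 genes the restricted values were the lower ones, and the groups were separate.

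The presynaptic scaffold genes Rim and brp fell by 0.57 and 0.40 on the restricted diet (adjusted p = 0.0413 for each). The other 3 neuron markers that passed are named after their values were seen: VAChT and ChAT, which load and make acetylcholine, with differences of -0.78 and -0.43, and the GABA receptor gene Rdl, with -0.37. The list of 12 synaptic release genes, which shares nSyb, Rim and brp with the neuron markers, had 3 lower calls, and all 12 had restricted values below every resveratrol value, against 2.09% and 21.2% of all genes. Snap25 of that list, another part of the release complex, differed by -0.39 (adjusted p = 0.0678).

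Ion channels and receptors outside the marker list included some of the largest falls. NaCP60E, another gene of the sodium channel family, had 7.32, 7.40 and 6.97 on the restricted diet, against 8.20, 8.11 and 8.40 with resveratrol (difference -1.01, adjusted p = 0.039). DopEcR, a receptor for dopamine and ecdysteroids, had 8.58, 7.93 and 8.33 on the restricted diet, against 9.05, 9.25 and 9.34 with resveratrol (difference -0.93, adjusted p = 0.0413). The acetylcholine receptor subunit gene nAChRalpha7 had 5.25, 5.73 and 5.05 on the restricted diet, against 6.17, 6.24 and 6.40 with resveratrol (difference -0.93, adjusted p = 0.0437). The restricted values of these 3 genes were the lower ones without overlap. The adenylyl cyclase gene rut, known for its role in fly learning, had 5.70, 6.09 and 6.10 on the restricted diet, against 7.23, 6.86 and 6.70 with resveratrol (difference -0.97, adjusted p = 0.0413). In the list of 13 ion channel genes, para and sei, a potassium channel gene, were the 2 that passed, with a list median of -0.28. Over all genes tested, 2.09% passed as lower.

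Cell adhesion genes gave 1 call in their list of 14 and a median of -0.38, with all 14 differences negative. Over all genes tested, 2.09% passed as lower and 5122 of 8822 differences were negative. Dscam2, an immunoglobulin-type adhesion molecule that directs the spacing of nerve branches, had 4.93, 4.75 and 4.88 on the restricted arrays, against 5.83, 6.10 and 6.31 on the resveratrol arrays. The difference was -1.23 ± 0.13 (SE, adjusted p = 0.0276), the groups were well separated, and the normal-diet values of 6.18, 6.005 and 5.91 lay with those of resveratrol. The gene beat-Vb, outside the list, had 5.63, 4.95 and 4.94 on the restricted diet, against 6.01, 6.22 and 6.16 with resveratrol (difference -0.96, adjusted p = 0.0454). Its first restricted array was nearer to the resveratrol arrays than to the other restricted arrays. The largest difference of the list belonged to jeb, the secreted ligand of the receptor Alk, at -1.37, and did not pass (adjusted p = 0.0688).

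Genes of the eye gave 5 lower calls out of 17 with a median difference of -0.31, against 2.09% of all genes passing as lower. The list mean was 10.36, 10.37 and 10.32 on the restricted arrays, against 10.54, 10.60 and 10.74 on the resveratrol arrays and 10.73, 10.65 and 10.69 on the normal-diet arrays. All restricted arrays lay below all others. The eye protein kinase C gene inaC, which ends the light response, had 9.82, 9.76 and 9.80 on the restricted arrays, against 10.26, 10.38 and 10.47 on the resveratrol arrays (difference -0.58 ± 0.08, SE, adjusted p = 0.039). The light-activated channel gene trp had 10.93, 11.06 and 10.96 on the restricted diet, against 11.41, 11.46 and 11.52 with resveratrol (difference -0.48, adjusted p = 0.0392). Neither gene overlapped between the treatments. The lipase gene inaE, the G protein subunit gene Gbeta76C and the photoreceptor surface gene chp also passed, with differences of -0.53, -0.25 and -0.49. Of the eye genes chp, ninaD and eys are named after their values were seen. In 15 of the 17 genes the restricted values lay entirely below those with resveratrol, as in 21.2% of all genes tested. The exceptions were eys, whose values overlapped, and ninaD, a receptor for carotenoid uptake that the gut also uses, whose difference was 0.85 (adjusted p = 0.464).

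**Figure D3:**
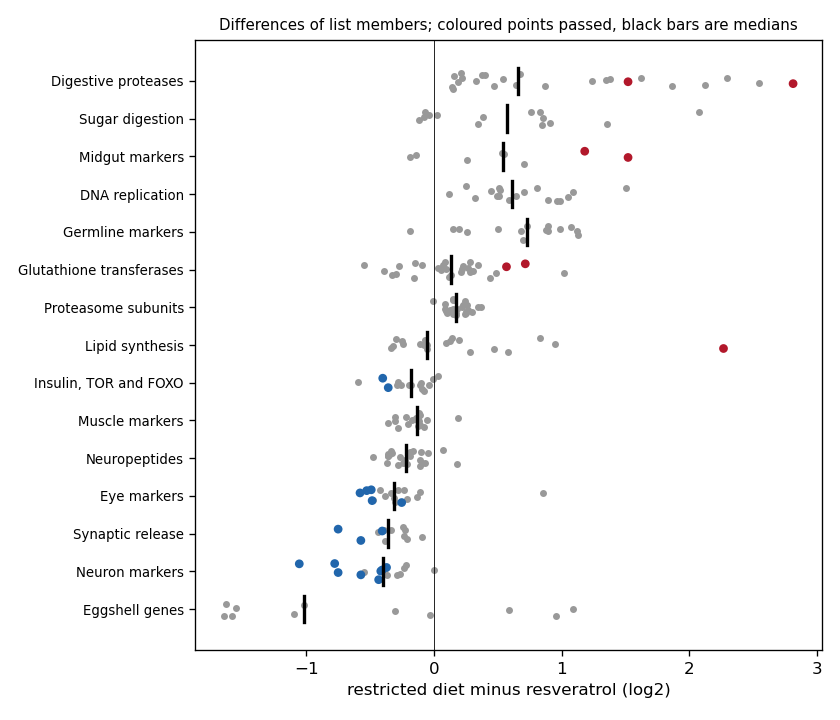
Difference in log2 level (restricted diet minus resveratrol) of each tested member of 15 gene lists, with black bars at the list medians and coloured points for members that passed. Digestive proteases lie to the right of 0 with a median of 0.66, and neuron, synaptic and eye genes lie to the left with medians of -0.40, -0.36 and -0.31.

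Other tissues of head and thorax gave no calls. None of 24 neuropeptide genes passed, while 12 had restricted values entirely below those with resveratrol, as in 21.2% of all genes, and the median was -0.22. None of 10 glial markers passed (median -0.25, and -0.15 without resveratrol replicate 3) and none of 19 muscle markers (median -0.13, and -0.09 without restricted replicate 1). The glial factor gene repo, named after its values were seen, had 9.53, 9.51 and 9.55 on the restricted arrays, against 9.51, 9.79 and 10.01 on the resveratrol arrays, with overlap (adjusted p = 0.274). Among 7 fat body markers none passed, and the median was -0.06. In 4 of them the restricted values lay entirely below those with resveratrol, against 21.2% of all genes tested. The other 3 differences were positive, that of Lsp2 among them. Lsp2, a storage protein of the fat body, had 13.74, 14.08 and 14.50 on the restricted diet, against 14.29, 11.95 and 12.46 with resveratrol, so that 1 resveratrol array lay inside the restricted range (difference 1.21, adjusted p = 0.235). On the normal diet it had 10.63, 9.59 and 10.43. The yolk protein genes Yp1, Yp2 and Yp3 were near the ceiling of the scale on all arrays, and no change is read from them.

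The lists of basic cell functions gave no calls. None passed among 54 respiratory chain genes (median -0.02), 69 mitochondrial ribosomal genes (median 0.04), 34 cytosolic ribosomal genes (median 0.02), 21 ribosome biogenesis genes (median 0.10), 19 genes of glycolysis and glycogen (median -0.03), 22 autophagy genes (median -0.09) or 11 heat shock genes (median 0.05). Several of these medians are as small as that of all genes tested, -0.04, and their direction is not read. The 8 haemocyte markers (median -0.12, and -0.02 without restricted replicate 1) and the 6 markers of the Malpighian tubule, the fly kidney (median 0.55, and 0.31 without resveratrol replicate 1), gave no calls either, nor did the 1 lysozyme gene tested.

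Single genes passed in 3 lists of secreted and metal-handling proteins. Cpr72Ec, a cuticle protein of the Cpr family, had 10.15, 10.13 and 10.26 on the restricted arrays, against 10.62, 11.13 and 11.17 on the resveratrol arrays (difference -0.79, adjusted p = 0.0437), and it was the 1 of 17 Cpr genes that passed. Obp56g, 1 of 27 odorant-binding genes, had 11.54, 11.67 and 11.70 on the restricted diet, against 11.97, 12.02 and 12.10 with resveratrol (difference -0.39, adjusted p = 0.0413). Mco1, a multicopper oxidase that handles iron and 1 of 11 genes of metal binding, had 8.22, 8.23 and 8.16 on the restricted diet, against 8.55, 8.54 and 8.54 with resveratrol (difference -0.34, adjusted p = 0.0437). All 3 genes were separate between the treatments. The normal-diet mean of Mco1, 8.32, lay nearer to the restricted diet, and that of Cpr72Ec, 11.46, lay beyond resveratrol.

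**Figure D4:**
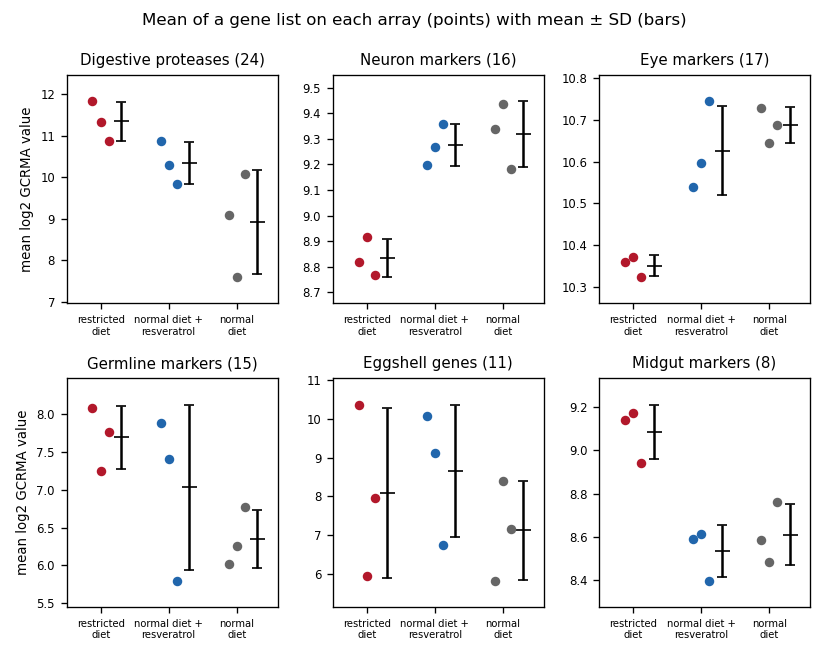
Mean log2 level of 6 gene lists on each array (points), with mean ± SD over the 3 arrays of a diet (bars) and the number of genes in parentheses. The restricted diet lies apart from both other diets in neuron, eye and midgut genes, whereas germline and eggshell genes spread widely within a diet, with 7.89, 7.41 and 5.80 for germline genes on the resveratrol arrays.

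Among the 15 largest passing differences downward, the gene kn, a COE-type transcription factor, had 4.82, 5.25 and 4.73 on the restricted arrays, against 6.21, 5.96 and 6.02 on the resveratrol arrays (difference -1.12, adjusted p = 0.0413). The dachshund gene, dac, a regulator of eye, leg and brain development, had 6.37, 6.57 and 6.02 on the restricted diet, against 7.01, 7.23 and 7.37 with resveratrol (difference -0.88, adjusted p = 0.045). Both were separate between the treatments, and their normal-diet means of 6.004 and 7.35 lay with resveratrol. Axs, a transmembrane protein first known from chromosome segregation in the egg, had 4.65, 4.47 and 4.03 on the restricted arrays, against 5.55, 5.40 and 5.54 on the resveratrol arrays (difference -1.12, adjusted p = 0.0413). Kif3C, a kinesin motor gene, had 4.57, 4.66 and 4.76 on the restricted arrays, against 5.35, 5.81 and 5.91 on the resveratrol arrays (difference -1.03, adjusted p = 0.039).

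CG8112, a predicted sterol O-acyltransferase, the enzyme type that stores sterols as esters, was the gene with the smallest adjusted p among those lower. It had 7.18, 7.48 and 7.39 on the restricted diet, against 8.33, 8.22 and 8.25 with resveratrol and 9.38, 9.33 and 9.33 on the normal diet. The 3 diets were again 3 separate steps, with resveratrol in the middle. The difference between the treatments was -0.92 ± 0.08 (SE, limma adjusted p = 0.0255), and the difference of resveratrol from the normal diet, -1.08, passed too (adjusted p = 0.00499). Slob, a regulator of the slowpoke potassium channel named after its values were seen, had 8.22, 8.24 and 8.17 on the restricted arrays, against 8.85, 8.90 and 8.98 on the resveratrol arrays (difference -0.70, adjusted p = 0.0273).

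In the insulin, TOR and FOXO list, 2 of 15 genes passed, both lower, and 14 of 15 differences were negative with a median of -0.18. Over all genes tested 2.09% passed as lower, and 5122 of 8822 differences were negative. The insulin receptor substrate gene chico had 9.23, 9.17 and 9.10 on the restricted arrays, against 9.50, 9.61 and 9.59 on the resveratrol arrays (difference -0.40 ± 0.06, SE, adjusted p = 0.039). The forkhead factor gene foxo, which insulin signalling holds out of the nucleus, had 10.11, 10.17 and 9.95 on the restricted diet, against 10.39, 10.43 and 10.48 with resveratrol (difference -0.36, adjusted p = 0.0474). Both sets of values were separate, and the normal-diet means of 9.59 for chico and 10.41 for foxo were close to those with resveratrol, 9.57 and 10.43. The insulin receptor gene InR had 9.43, 9.43 and 9.11 on the restricted diet, against 9.74, 10.02 and 9.98 with resveratrol, and its difference of -0.59 did not pass (adjusted p = 0.0936).

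Sirtuin genes, the reported targets of resveratrol, gave no difference that passed. Sirt1 had 10.86, 10.86 and 10.84 on the restricted diet, against 10.84, 10.91 and 10.87 with resveratrol, a difference of -0.02 ± 0.06 (SE, adjusted p = 0.837), and its normal-diet mean was 10.93. The ranges overlapped. Of the 12 tested genes of the sirtuin, NAD, p53 and AMPK list none passed, and the median was -0.07, close to that of all genes. The smallest p of that list belonged to Naam, a nicotinamidase gene, with a difference of -0.43 (adjusted p = 0.0723). The tumour suppressor gene p53 differed by 0.35 (adjusted p = 0.125). Transcript levels do not measure the activity of these proteins.

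Among 18 transcription factors linked to nutrient state, GATAe was higher, and Hr38, Atf3 and foxo were lower. Over all genes tested, 0.453% passed as higher and 2.09% as lower. The list median was -0.09. Hr38 is a nuclear receptor of the NR4A type whose transcript is known to rise with neuronal activity. It had 6.87, 7.38 and 7.24 on the restricted diet, against 8.15, 8.42 and 8.61 with resveratrol, and 7.56, 7.84 and 7.28 on the normal diet. The difference of -1.23 ± 0.19 (SE, adjusted p = 0.039) was the largest fall of a named gene that passed, and every resveratrol value lay above all values of both other diets. Resveratrol minus normal diet did not pass (adjusted p = 0.179). Atf3, a stress-responsive factor, fell by 0.39 (adjusted p = 0.039).

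Juvenile hormone genes split, with 1 higher and 2 lower out of 13 tested, against 0.453% and 2.09% of all genes. The 13 include tko, a mitochondrial ribosomal protein gene that does not belong to this pathway. Kr-h1, the zinc finger factor that juvenile hormone induces, had 10.49, 10.84 and 10.65 on the restricted diet, against 9.98, 10.01 and 10.18 with resveratrol and 11.16, 10.96 and 10.998 on the normal diet. The restricted values lay between the other diets, above every resveratrol value (difference 0.60 ± 0.10, SE, adjusted p = 0.0413). The resveratrol values were also lower than those of the normal diet (difference -0.98, adjusted p = 0.0246). Restricted minus normal diet passed too (difference -0.38, adjusted p = 0.0446). Jhbp2 and Jhbp15, predicted juvenile hormone binding proteins, fell by 0.39 (adjusted p = 0.0467) and 0.63 (adjusted p = 0.0474). The hormone's receptor gene, Met, differed by -0.66 and did not pass (adjusted p = 0.0548).

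Lipid and sterol handling outside synthesis gave 1 call in each of its lists. The lipase gene bmm, the fly relative of adipose triglyceride lipase, had 11.30, 11.12 and 11.05 on the restricted diet, against 11.55, 11.66 and 11.55 with resveratrol, and 11.28, 11.29 and 11.24 on the normal diet. It fell by 0.43 on the log2 scale on the restricted diet relative to resveratrol (adjusted p = 0.0413), and resveratrol minus normal diet did not pass (adjusted p = 0.194). None of the other 16 genes of lipid storage and breakdown passed. Npc1a, a sterol transporter of the lysosome, had 9.43, 9.45 and 9.31 on the restricted diet, against 9.83, 9.70 and 9.79 with resveratrol, and fell by 0.38 (adjusted p = 0.0454). Npc2f, a gene of the Npc2 family of sterol-binding proteins in the same list, had a larger difference in the other direction, 2.42, which did not pass (adjusted p = 0.235).

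Cyp18a1, a P450 that inactivates ecdysteroids, had 10.24, 10.32 and 10.21 on the restricted arrays, against 10.59, 10.87 and 10.90 on the resveratrol arrays (difference -0.53, adjusted p = 0.0413). In the clock list only tim, a core repressor of the circadian oscillator, passed, with 9.47, 9.37 and 9.38 on the restricted diet, against 9.91, 9.65 and 9.78 with resveratrol (difference -0.37, adjusted p = 0.0474). Both genes were lower on every restricted array. The clock repressor gene cwo had a positive difference of 0.34 that did not pass (adjusted p = 0.0723).

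Setting each passing gene beside the normal-diet arrays shows on which side the untreated flies lay. These means share arrays with the comparison's own fit and are given as a description. Of the 184 lower genes, 171 (92.9%) had a normal-diet mean nearer to resveratrol than to the restricted diet, against 78.6% of all 5122 genes with a negative difference. Of the 40 higher genes it was 26 (65.0%), against 70.8% of all 3691 genes with a positive difference. In the comparisons with the normal diet, 18.2% of genes passed for the restricted diet and 0.227% for resveratrol. No test of the difference between these shares was made.

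The other 14 higher and 13 lower genes had a normal-diet mean nearer to that of the restricted diet, in some by little, as for comm2, whose normal-diet mean of 8.84 stood almost midway between 8.63 on the restricted diet and 9.05 with resveratrol. For resveratrol minus normal diet 7 of these 27 passed, all among the 14 higher genes. For restricted minus normal diet 2 did, hry and Kr-h1, both with negative differences. The 27 were picked with the same resveratrol and normal-diet arrays, which favours a difference of resveratrol from the normal diet. The counts, and the adjusted p-values of resveratrol minus normal diet for single genes of this set, are therefore a description. The genes comm2, Pisd, MFS14, hry and CG32425 are named after their values were seen. CG11741, to which no role is given here, had 9.42, 10.05 and 9.59 on the restricted diet, against 7.93, 8.20 and 8.24 with resveratrol, and 10.23, 10.16 and 9.96 on the normal diet. Its difference between treatments was 1.56 ± 0.17 (SE, limma adjusted p = 0.0276), and resveratrol minus normal diet was -1.99 (adjusted p = 0.0081). The resveratrol values were below every value of both other diets.

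Pisd, a mitochondrial phosphatidylserine decarboxylase that makes phosphatidylethanolamine, had the smallest adjusted p of the higher genes. It had 12.31, 12.48 and 12.45 on the restricted diet, against 11.75, 11.71 and 11.76 with resveratrol, and 12.34, 12.22 and 12.26 on the normal diet. The difference was 0.67 ± 0.06 (SE, adjusted p = 0.0255), and resveratrol minus normal diet, -0.53, passed as well (adjusted p = 0.0302). MFS14, a transporter of the major facilitator superfamily, and hry, the hairy transcriptional repressor, likewise had their lowest values with resveratrol. For hry the restricted values also lay below those of the normal diet (difference -0.38, limma adjusted p = 0.0229). Their differences between the treatments were 0.61 (adjusted p = 0.039) and 0.47 (adjusted p = 0.0415), and those of resveratrol minus normal diet were -0.76 (adjusted p = 0.0302) and -0.85 (adjusted p = 0.0182).

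On the lower side CG1979, to which no role is given here, had 3.62, 3.63 and 3.62 on the restricted diet, against 5.18, 4.98 and 4.24 with resveratrol, and 3.31, 3.63 and 3.56 on the normal diet. Only the resveratrol arrays rose above log2 4, so the gene met the filter through the group where it is high. The level on the restricted diet was at least 1.74-fold lower, taken against log2 4. Its limma adjusted p of 0.045 depends on that filter and is not read as support for a difference. The difference of resveratrol from the normal diet, 1.30, did not pass (adjusted p = 0.0767).

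**Figure D5:**
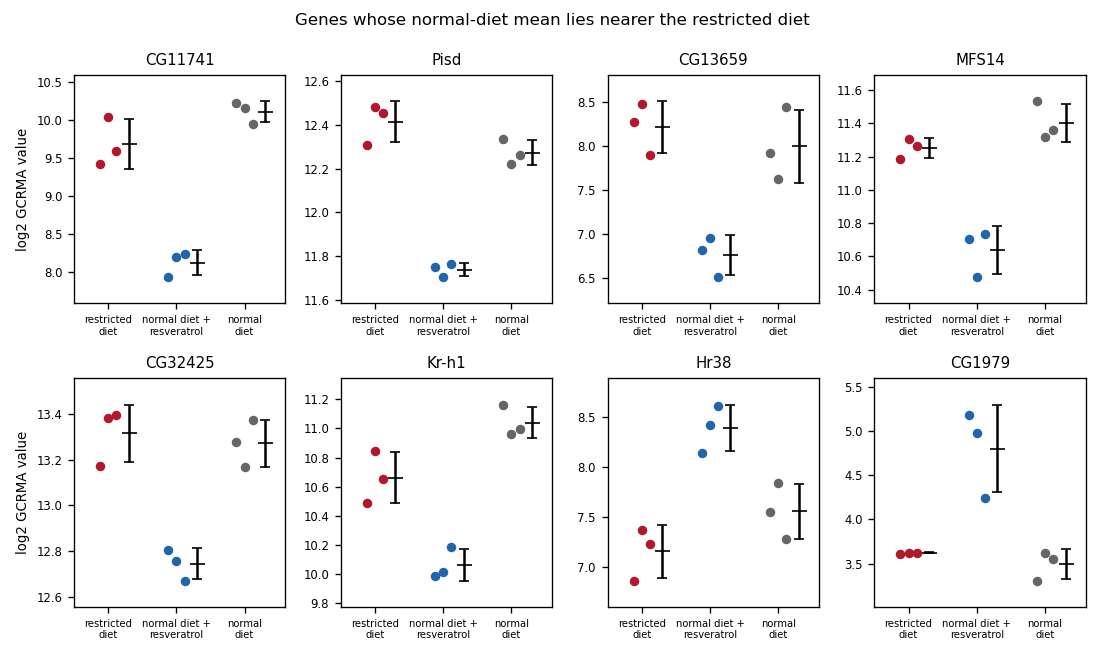
Log2 level on each array (points) with mean ± SD per diet (bars) for 8 passing genes whose normal-diet mean lay nearer to the restricted diet. The resveratrol arrays are the low ones for CG11741, Pisd, CG13659, MFS14, CG32425 and Kr-h1 and the high ones for Hr38 and CG1979. CG1979 met the filter only through its resveratrol arrays.

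Gene length, a property that did not enter the choice of the genes, is given for those that passed. The median span from start to end of the annotated gene was 1.64 kb for 38 higher genes with an annotated span, 8.23 kb for 158 lower genes, and 2.80 kb for all 7738 tested genes that had one. The quartiles of the lower genes were 3.93 and 23.96 kb. Median level was 10.6 for the higher and 8.91 for the lower genes, against 8.73 for all. Arm 3R of the third chromosome carried 14 of the 38 named higher genes (36.8%), against 24.9% of all named genes tested. These are descriptions, and no test was made.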

How the data were processed

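Per the labels' protocols, total RNA was isolated with Trizol, cleaned on RNeasy columns, and 5 µg entered one-cycle labelling. The authors deposited log2 values per probe set, made with GCRMA per the submitters' processing notes, with neither its version nor the arrays it joined stated in the sources used here. Its background subtraction, modelled on probe sequence, widens differences near the floor. That the scale is log2 follows from the range of 2.12 to 16.39. Where the lower group's mean lay under log2 4, a fold is a lower bound against log2 4.

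Of 18952 probe sets, 183 controls were left out. Of the other 18769, 13646 named 1 gene in the platform annotation, 402 several and 4721 none, and 13543 of the 13646 were found in the gene table of assembly Release 6 plus ISO1 MT. At least 3 of 9 arrays reached log2 4 for 9401. Each gene was represented by its brightest probe set over all arrays, leaving 8822 features: 7759 naming 1 gene, 234 several and 829 none. No genome sequence was used.

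The fit, a mean per diet over all 9 arrays, used limma 3.58.1 (R 4.3.3). The spread had 6 residual degrees of freedom, to which the prior added 1.81. The threshold was a Benjamini-Hochberg adjusted p under 0.05 over all features, two-sided. All adjusted p-values are limma's, and none is adjusted over a list. The script was tested on simulated data. The members, the 50 gene lists and the rules were chosen with earlier results of these data known. Named genes were the 15 largest passing differences each way without overlap between the groups, up to 4 members of each list with the smallest p, and Sirt1, p53, foxo, Yp1, Yp2, Yp3, Lsp2, InR and chico; for other genes the text says that they were picked with values in view. Alternatives covered the scaling, the filter, the probe set, the variance model, the arrays in the fit, the threshold, a germline covariate, a replicate term and leaving out each array.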

Additional observations from a re-analysis of the deposited data

How the results depend on the processing

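Counts of higher and lower genes were 40 and 184. They were 20 and 18 after quantile normalization, 11 and 4 with arrays centred on their medians, 4 and 4 with no filter, 1 and 0 with only the 6 arrays compared, 161 and 723 at an adjusted p under 0.1, 13 and 10 at 2-fold or more, 288 and 1052 with array weights, and 3 and 5 with the germline mean as covariate. Leaving out 1 array gave 0 to 107 higher and 0 to 183 lower genes: 0 and 0 without restricted replicate 3 (1722 at an unadjusted p under 0.05) or resveratrol replicate 2 (1681), 0 and 1 without resveratrol replicate 3, 2 and 2 without normal-diet replicate 1, 40 and 118 without normal-diet replicate 3, 4 and 3 without restricted replicate 1, 7 and 32 without restricted replicate 2, and 19 and 63 without resveratrol replicate 1. The cause was not tested. A stricter filter, other choices of probe set and the trend and robust options left both counts within 1.5 times.

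With the replicate number as a block limma called 0 higher and 0 lower genes, with 2029 at an unadjusted p under 0.05 and a smallest adjusted p of 0.0919. Whether the numbers pair the arrays was not tested. Deviations from the diet mean of same-numbered restricted and resveratrol arrays correlated at 0.40, -0.18 and -0.04. The highest value, 0.41, joined restricted replicate 2 with resveratrol replicate 3. Deviations within a diet depend on one another, so these values cannot decide the question.

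The 55 named genes that passed kept their sign in 1308 of 1308 refitted values, of which 713 no longer passed. In many of these settings the sign could not turn. Changing the filter, the variance model, the threshold or the normal-diet arrays leaves the difference of a gene as it is. Leaving out 1 array cannot turn it where the groups do not overlap, so the count of kept signs is not read as stability. Signs turned for genes that had not passed: Yp1 to -0.022 under quantile normalization, Sirt1 to 0.022 with centred arrays, fs(1)N to -0.0893 with the germline covariate and -0.0179 without resveratrol replicate 3 (highest 1.69, without resveratrol replicate 1), and Acp95EF to -0.0021 without restricted replicate 1 (highest 0.393, without restricted replicate 2). The list medians of eggshell genes ran from -2.10 to 0.27 as single arrays were left out. Signal near the floor limits what can be said of dim genes such as Jon66Ci and CG1979.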

Other observations

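A family of genes annotated in the fly as ecdysteroid kinase-like, related to enzymes that phosphorylate steroid hormones in other insects, was also measured. It was listed after these values were seen, so its counts are a description with no test. Of 36 tested members, 4 were higher on the restricted diet than with resveratrol (CG13659, CG31288, CG6908 and CG31104) and 2 were lower (CG5644 and pkm), against 0.453% and 2.09% of all genes tested. The median difference was 0.34, with 25 positive and 11 negative.

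CG13659 had 8.27, 8.48 and 7.90 on the restricted diet, against 6.82, 6.96 and 6.51 with resveratrol and 7.92, 7.62 and 8.45 on the normal diet (difference 1.45, limma adjusted p = 0.0413). The resveratrol arrays were the low ones. CG6908 had 12.56, 12.56 and 12.42 on the restricted diet, against 11.73, 11.34 and 11.56 with resveratrol and 11.40, 11.18 and 11.68 on the normal diet (difference 0.97, adjusted p = 0.039), so that for this gene the restricted arrays were the high ones. CG5644 had 5.25, 5.30 and 5.25 on the restricted diet, against 6.09, 6.57 and 6.31 with resveratrol (difference -1.06, adjusted p = 0.0454), without overlap.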
